A study of Mus musculus and Homo sapiens with 22 samples.

Results

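The genes described here are 8 regulators of skeletal muscle fate, Myod1, Myf5, Myf6, Myog, Pax3, Pax7, Mef2c and Mymk, out of 21911 protein-coding genes in mouse, and their 8 human counterparts out of 20007. A PROX1 peak was given to a gene when its summit lay in the gene body or within 50 kb of it. By this rule 5 of 50159 liver peaks, 29 of 40531 peaks of mouse embryonic fibroblasts (MEFs) and 2 of 14369 Hep3B peaks belonged to the 8 genes.

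The peaks came from CUT&RUN, in which an antibody directs a nuclease to cut out the DNA bound by a protein, of the homeobox factor PROX1. Liver PROX1 was the endogenous protein in nuclei prepared from homogenised livers of wildtype C57BL/6J mice aged 2 to 3 months, which the labels call hepatocyte nuclei though no purification of that cell type is described (5 samples with an antibody to PROX1, 5 with control IgG). MEFs came from C57BL/6N embryos at E13.5 and carried lentiviral rtTA and tetO-FLAG-mmProx1, induced with 2 µg/ml doxycycline for 2 days (3 samples with an antibody to FLAG, 3 with IgG). Hep3B, a human hepatocellular carcinoma line, carried the lentivirus pLIX-Puro-hsPROX1 after puromycin selection and was induced in the same way at 2 µg/ml for 2 days (3 samples with an antibody to FLAG, 3 with IgG). Liver was tissue rather than cultured cells. It differed from both cultures in cell type, in the antibody and in having endogenous rather than introduced PROX1. From MEFs it differed also in mouse strain (C57BL/6J against C57BL/6N) and in adult against embryonic age, and from Hep3B cells in species. The smallest peak area, a score of the caller, was 500 in the liver list and 200 in the others. The parts of these and any other factors in a difference cannot be told apart. Each list pooled the replicates of its group, so the values below carry no replicate spread and no test between groups, and the depth is unknown. Peak lists hold no expression values, so the cell types were taken from the labels.

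Skeletal muscle is specified by a small circuit of transcription factors. PAX3 and PAX7 mark muscle progenitors and satellite cells. MYOD1, MYF5, MYF6 and MYOG are basic helix-loop-helix factors that bind E-boxes together with E proteins and switch on muscle genes, MEF2C is their MADS-box partner, and MYMK (myomaker) is the membrane protein that lets myoblasts fuse. The myogenic factors are not normally expressed in hepatocytes, and fibroblasts are the classic cell in which forced MYOD1 opens the muscle programme.

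Sequence at the summits is shown first, because most of these peaks lay far from any start of a muscle gene, so that the bases at the summit, rather than a promoter, describe them. Each run holds the forward strand from 50 bases before to 50 bases after a summit, taken from the strongest peak nearest to the gene's own start. For Myod1, Myog and Mymk, which had no such peak, the strongest assigned peak is given, and the Pax3 start peak was added, both choices made after the values were seen. Capitals mark matches to the CTCF consensus with up to 2 mismatches on either strand. CTCF is the zinc finger protein that anchors chromatin loops.
Myod1 in MEFs, mm10 chr7:46393285-46393385: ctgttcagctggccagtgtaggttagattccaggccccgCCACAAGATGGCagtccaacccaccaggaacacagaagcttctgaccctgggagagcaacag
Myf5 and Myf6 in MEFs, on the Myf5 side, mm10 chr10:107442917-107443017: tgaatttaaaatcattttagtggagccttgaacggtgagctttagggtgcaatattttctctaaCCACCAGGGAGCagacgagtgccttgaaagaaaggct
Myf5 and Myf6 in MEFs, on the Myf6 side, mm10 chr10:107534249-107534349: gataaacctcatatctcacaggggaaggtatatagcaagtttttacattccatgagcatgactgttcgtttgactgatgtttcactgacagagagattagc
Myog in MEFs, mm10 chr1:134244418-134244518: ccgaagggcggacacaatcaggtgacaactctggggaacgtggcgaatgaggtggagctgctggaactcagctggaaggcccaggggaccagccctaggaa
Pax3 start in MEFs, mm10 chr1:78197166-78197266: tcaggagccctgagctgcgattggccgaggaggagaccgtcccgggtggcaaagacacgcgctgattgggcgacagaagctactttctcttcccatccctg
Pax3 upstream in MEFs, mm10 chr1:78234475-78234575: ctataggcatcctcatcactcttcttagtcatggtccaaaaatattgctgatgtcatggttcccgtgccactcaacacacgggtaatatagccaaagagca
Pax7 in MEFs, mm10 chr4:139858854-139858954: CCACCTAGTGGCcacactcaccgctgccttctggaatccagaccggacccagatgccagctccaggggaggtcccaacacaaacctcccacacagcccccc
Mef2c in MEFs, mm10 chr13:83655017-83655117: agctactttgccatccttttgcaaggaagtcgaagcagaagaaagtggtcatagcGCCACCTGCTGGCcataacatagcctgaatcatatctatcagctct
Mymk in MEFs, mm10 chr2:27043620-27043720: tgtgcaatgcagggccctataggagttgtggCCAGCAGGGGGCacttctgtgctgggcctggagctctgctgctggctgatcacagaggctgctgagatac

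Among these 9 MEF runs, 5 held a CTCF consensus match and 4 did not. In the wider window of 200 bp centred on the summit, 41.2% of all MEF peaks held such a match. No share over all peaks of any list was computed at the length of the runs. The motif counts in the printed runs therefore describe only those runs and no difference from the lists. The match near Mef2c overlapped an E-box, the sequence CANNTG, and the Myog run held 2 E-boxes and no CTCF match. The PROX1 consensus occurred in none of the 9 within 2 mismatches.

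The liver and Hep3B runs were chosen in the same way, and they show what stood at the few summits these lists placed near the genes.
Pax3 in liver, mm10 chr1:78143222-78143322: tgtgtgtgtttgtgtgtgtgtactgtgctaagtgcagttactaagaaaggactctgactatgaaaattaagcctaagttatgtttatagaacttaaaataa
Pax7 in liver, mm10 chr4:139791207-139791307: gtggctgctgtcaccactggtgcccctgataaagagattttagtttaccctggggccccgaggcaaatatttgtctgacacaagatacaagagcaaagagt
Mymk in liver, mm10 chr2:27042674-27042774: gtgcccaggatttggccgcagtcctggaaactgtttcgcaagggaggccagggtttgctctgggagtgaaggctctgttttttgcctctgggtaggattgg
MYMK in Hep3B, hg38 chr9:133533199-133533299: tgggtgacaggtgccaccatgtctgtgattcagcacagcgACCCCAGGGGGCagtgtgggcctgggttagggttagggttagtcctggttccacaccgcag
None of the 3 liver runs held a CTCF match or an E-box, and the Hep3B run held 1 of each. In mm10 the Mymk runs of liver and MEFs, both downstream of the gene, lay 946 bp apart from summit to summit.

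In liver, 3 of the 8 genes had a peak in or near them, Pax3, Pax7 and Mymk, against 69.2% of all protein-coding genes. That share of 8 genes would be 5.53 genes. No liver summit lay within 1 kb of a start of any of the 8, where 28.3% of all genes had one (2.26 of 8 genes), or within 10 kb, where 44.1% had one (3.53 of 8).

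In MEFs all 8 genes had a peak, against 81.3% of all genes, or 6.50 of 8, a share near the background. Near the starts the count was lower than the background. Only Pax3 had a MEF summit within 1 kb of a start, 1 of 8 against 56.5% of all genes (4.52 of 8), and Pax3, Mef2c and Mymk had one within 10 kb, 3 of 8 against 67.2% (5.37 of 8).

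In Hep3B cells only MYMK had peaks, 1 of 8 genes against 72.0% of all genes (5.76 of 8). No Hep3B summit lay within 1 kb of a start of the 8, against 45.2% (3.62 of 8), and 1 of 8, MYMK, had a summit within 10 kb, against 53.1% (4.25 of 8). These counts are descriptions of 8 chosen genes, 2 of which, Myf5 and Myf6, are neighbours that shared both of their MEF peaks.

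**Figure D1:**
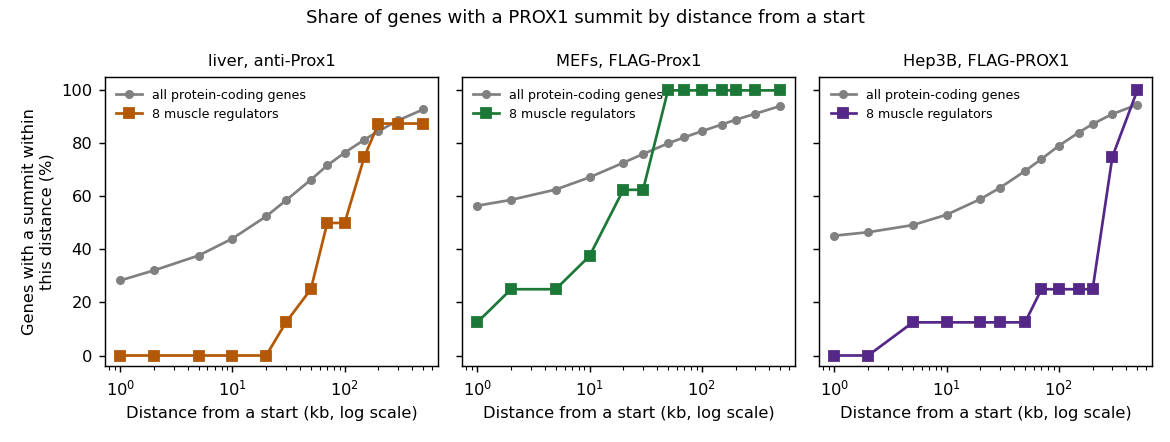
Share of genes (vertical axis, percent) with a PROX1 summit within a given distance of any annotated start (horizontal axis, kb, log scale) in liver, MEFs and Hep3B cells, for the 8 muscle regulators in colour and all protein-coding genes in grey. The regulators lay below the grey line at short distances in all 3 lists, and in MEFs they crossed it at 50 kb, where 8 of 8 had a summit against 80.0% of all genes.

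CpG content of the promoter went along with the promoter calls in all 3 lists, and most of the 8 mouse promoters were poor in CpG. In mouse, genes with a CpG observed to expected ratio of 0.6 or more in the 1 kb around their outermost start had a promoter peak in 89.3% of cases in MEFs and 39.9% in liver, against 28.7% and 18.3% of genes below 0.6. Of the 8 mouse genes only Pax3, at 0.669, and Pax7, at 0.628, reached 0.6. The ratio was 0.481 at Myod1, 0.406 at Myf5, 0.380 at Myf6, 0.344 at Myog, 0.296 at Mef2c and 0.130 at Mymk, against a median of 0.553 over all genes. Within the CpG-poor class, 0 of 6 regulators had a MEF promoter peak where the class share would be 1.72 genes, and 0 of 6 had a liver promoter peak where it would be 1.10. In the CpG-rich class, 1 of 2, Pax3, had a MEF promoter peak where the share would be 1.79, and 0 of 2 had a liver promoter peak where it would be 0.799. In human, 4 of the 8 promoters were CpG-rich, MYOD1 at 0.761, MYF5 at 0.624, PAX3 at 0.660 and PAX7 at 0.817, and none of the 4 had a Hep3B promoter peak, where the 61.8% of the CpG-rich class would give 2.47 genes. Of the 4 CpG-poor human promoters 0 had one, where the 20.2% of that class would give 0.810 genes. The division by CpG was added after the counts were seen.

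**Figure D2:**
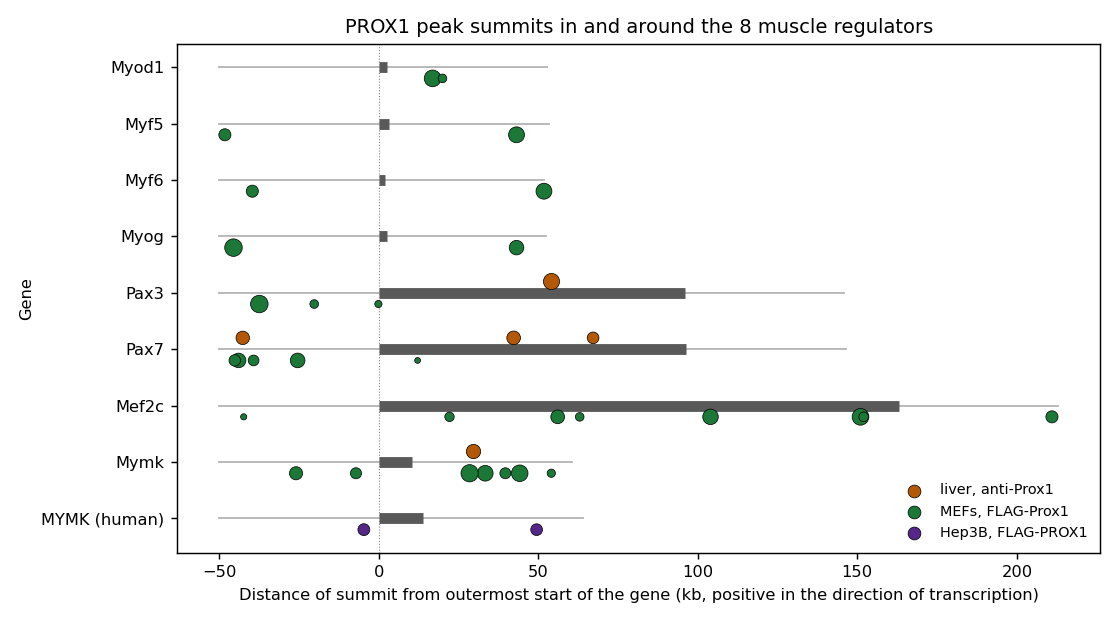
Summits assigned to each gene by distance from its outermost start (horizontal axis, kb, positive in the direction of transcription), with the gene body as a dark bar and the window of 50 kb on each side as a thin line. Orange points above the line are liver, green points below it are MEFs and purple points are Hep3B at human MYMK, and larger points rank higher in their own list. The green points of Myod1, Myf5, Myf6 and Myog all lie outside the gene bodies.

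Pax3 and Pax7, which encode the paired-box factors of muscle progenitors, carried 4 of the 5 liver peaks. Their windows were long, 196 kb each. The liver densities, 0.511 peaks per 100 kb at Pax3 and 1.53 at Pax7, were below the median of all genes, 1.85. The strength of a peak is given as the −log10 p of its summit and as its rank percentile, the percent of peaks in the same list that ranked at or below it by that value, with tied peaks given their mean rank. The single liver peak of Pax3, at chr1:78142767-78143743 in mm10, lay in an intron 53.9 kb into the gene, with a −log10 p of 15.5 and a rank percentile of 77.5, the highest of the liver peaks near these genes. Pax7 had 3 liver peaks. The peak at chr4:139791189-139791881 lay in an intron 42.3 kb into the gene (−log10 p 12.4, percentile 52.2). A weaker intronic peak lay 67.2 kb into the gene at chr4:139766078-139766401 (10.9, percentile 35.5). The third Pax7 peak was intergenic, 42.6 kb upstream at chr4:139875880-139876346 (12.2, percentile 50.3). None of the 4 was near a start, and all 4 had a start of Pax3 or Pax7 as the nearest coding start.

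In MEFs, Pax3 had 3 peaks, all at or upstream of its start. The peak at chr1:78196284-78197407 had its summit 82 bp upstream of the start and was the only promoter peak of the 8 genes. It was weak, with a −log10 p of 4.36 and a percentile of 6.65, although its width of 1124 bp exceeded the median of 646 bp in the list. The peak 20.2 kb upstream, at chr1:78215968-78217768, was 1801 bp wide and also weak at its summit (4.70, percentile 14.6). The peak 37.4 kb upstream, at chr1:78234144-78234820, ranked highest of all the MEF peaks near the 8 genes (8.52, percentile 93.4). By area the order differed, with 829 at the peak 20.2 kb upstream, 577 at the peak 37.4 kb upstream and 380 at the start.

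Pax7 had 5 MEF peaks, of which 4 formed a cluster 25.4 to 45.1 kb upstream and 1 lay in an intron 12.2 kb into the gene. The strongest, 25.4 kb upstream at chr4:139858792-139858939, was 148 bp wide and reached a −log10 p of 6.45, percentile 61.9. The peak at chr4:139876990-139877695, 43.9 kb upstream, was close to it in rank (6.41, percentile 60.9) and had a larger area under the significance curve, 666 against 209. The intronic peak was near the bottom of the list (3.76, percentile 0.465). The liver peak upstream of Pax7 stood inside this cluster, 1322 bp from the nearest MEF summit, without overlapping a MEF peak.

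The basic helix-loop-helix factors had no liver and no Hep3B peak, and their MEF peaks stood outside the genes. Myod1, the factor that can convert fibroblasts to muscle, had 2 MEF peaks downstream. The stronger, 16.9 kb from the start at chr7:46393091-46393507, had a −log10 p of 7.59 and a percentile of 83.8, and its nearest coding start was that of Kcnc1, a potassium channel gene, 3162 bp away. The weaker, at chr7:46396081-46396549 (4.69, percentile 14.4), lay 61 bp from the Kcnc1 start, so it was a promoter peak of the neighbour. By nearest start neither peak would be given to Myod1.

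Myf5 and Myf6, which stand head to tail in 1 cluster and are the early and late members of the family, shared 2 MEF peaks. The peak at chr10:107442671-107443151 lay 43.2 kb from the Myf5 start on the downstream side (7.07, percentile 75.0). The peak at chr10:107534141-107534767 lay 39.6 kb upstream of Myf6 in an intron of Ptprq (5.57, percentile 38.8). Neither was nearer than 39.6 kb to a start of either gene.

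Myog, which drives terminal differentiation, had 2 MEF peaks on opposite sides. The peak 45.5 kb upstream, at chr1:134243950-134244879, was strong (8.52, percentile 93.3), with the largest area of the 29 peaks, 1319, but its nearest coding start was that of Adora1, an adenosine receptor gene, 9037 bp away. The peak 43.2 kb downstream, at chr1:134332839-134333209 (6.41, percentile 61.0), lay 232 bp from the start of Ppfia4, a liprin gene. Both peaks were nearer to another gene than to Myog.

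Mef2c held more MEF peaks than any of the other 7 genes, 8, and no liver peak. Its window, at 263 kb, was also the longest, and its 3.04 peaks per 100 kb stood near the median of all genes, 2.73. The strongest peak was intronic, 151 kb into the gene at chr13:83654750-83655288 (7.59, percentile 83.8), and the next in rank, 104 kb into the gene at chr13:83608325-83608774, was intronic as well (6.85, percentile 70.8). A peak at chr13:83655439-83655735 had its summit in a coding exon (4.92, percentile 20.4). The closest to any start was the peak at chr13:83525791-83526667 (4.86, percentile 19.1), 1337 bp from 1 of the 27 annotated starts of Mef2c and 22.2 kb from the outermost. The other 4 had percentiles of 53.0, 38.8, 14.3 and 1.86. All 8 had a Mef2c start as the nearest coding start, while the nearest liver summit to any of them was 507 kb away.

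Mymk was the only gene of the 8 with peaks in all 3 lists, and each of them was nearer to a start of a neighbour. It had 7 MEF peaks, 6.33 per 100 kb, a density above that of 83.7% of all genes. Apart from Mymk and Mef2c, the genes lay below the MEF median of 2.73 per 100 kb, from 1.53 at Pax3 to 2.54 at Pax7. The strongest Mymk peak, at chr2:27043578-27043882, was intergenic and downstream (8.14, percentile 90.2). The peak at chr2:27027808-27028457 (7.49, percentile 82.3) lay 5 bp from the start of Slc2a6, a glucose transporter gene. The peaks at chr2:27079001-27079499 (5.28, percentile 30.8) and chr2:27097794-27098352 (5.88, percentile 47.5) lay 84 and 6 bp from starts of Adamtsl2, a gene for a secreted glycoprotein of the matrix. The former was also the MEF peak closest to Mymk, 7.12 kb upstream, and the latter had its summit in a noncoding exon of Adamtsl2. The other 3 peaks had percentiles of 72.8, 30.0 and 12.1. None of the 7 had Mymk as the nearest coding gene. The liver peak, at chr2:27041937-27042857, was intergenic, 25.1 kb from the nearest Mymk start (13.1, percentile 58.9).

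The 2 Hep3B peaks of MYMK followed the same neighbours in hg38. The peak at chr9:133478576-133479232 lay 2 bp from a start of SLC2A6, in its UTR (6.01, percentile 35.6). The peak at chr9:133533127-133533353 was 4.64 kb upstream of MYMK, in an intron of ADAMTSL2 and 1060 bp from an ADAMTSL2 start (6.05, percentile 37.1). Neither had MYMK as the nearest coding gene.

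**Figure D3:**
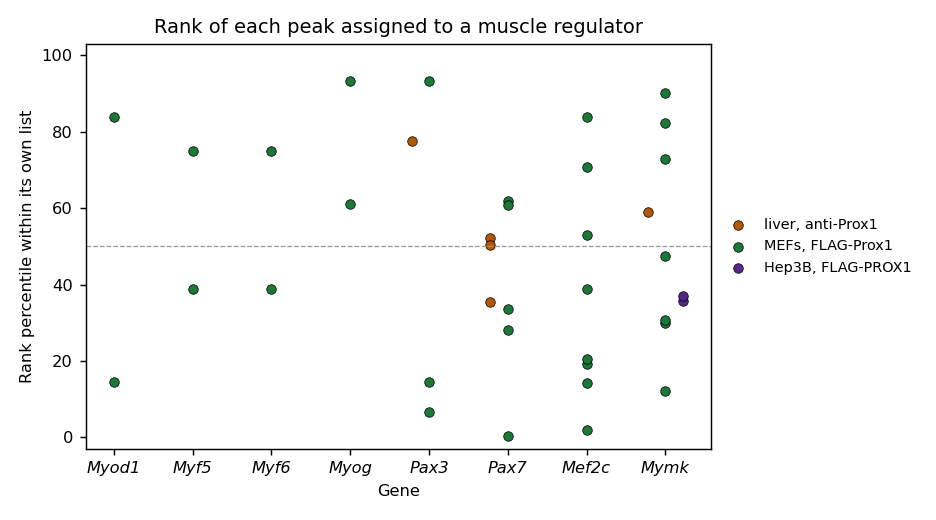
Rank percentile of each assigned peak within its own list (vertical axis, 0 to 100, higher is stronger, dashed line at 50) for each gene (horizontal axis), with liver in orange, MEFs in green and Hep3B in purple. The MEF peaks spread from 0.465 to 93.4, and Myf5 and Myf6 show the same 2 points because they share peaks.

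Peaks near the muscle regulators were of ordinary strength in every list. Their median percentile was 52.2 in liver (lowest 35.5, highest 77.5), 38.8 in MEFs (0.465 to 93.4) and 36.4 in Hep3B cells, with 3 MEF peaks above the 90th percentile and none above the 95th in any list. Percentiles are within a list, and the −log10 p scales are not shared. It ranged from 6.09 to 61.7 over the liver list and from 3.33 to 15.7 over the MEF list, where 93.8% of peaks shared their value with another peak.

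By nearest coding start, 4 of the 5 liver peaks and 18 of the 29 MEF peaks belonged to 1 of the 8 genes, and neither of the 2 Hep3B peaks did. The 18 MEF peaks were those of Myf5, Myf6, Pax3, Pax7 and Mef2c. A further 5 of the 29 lay within 1 kb of a start of Kcnc1, Ppfia4, Slc2a6 or Adamtsl2. Of the 29 MEF summits 17 were intergenic and 7 intronic, and of the 5 liver summits 2 were intergenic and 3 intronic. These counts stand without the same shares over all peaks, so they describe only these peaks and no difference from the lists.

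**Figure D4:**
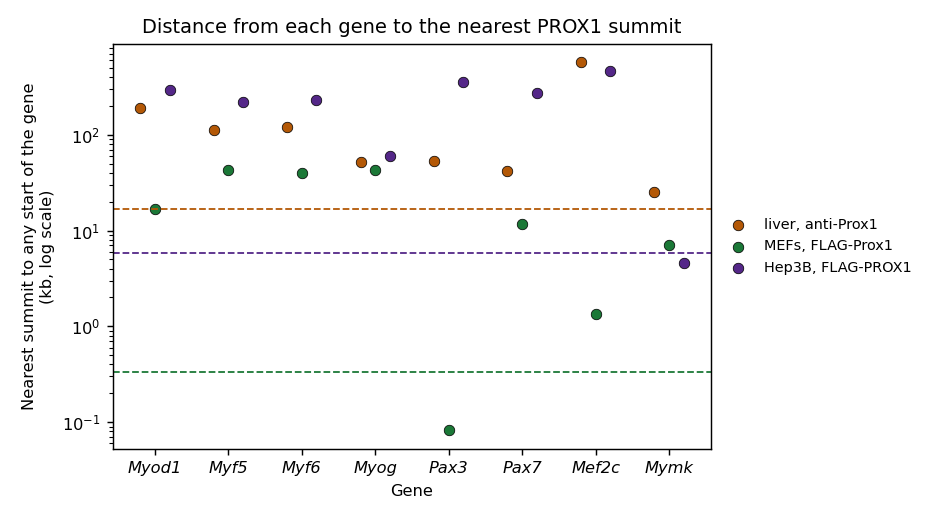
Distance from the nearest summit to any annotated start of each gene (vertical axis, kb, log scale) in liver (orange), MEFs (green) and Hep3B cells (purple), with dashed lines at the median over all protein-coding genes in the same colours. All 8 liver points lie above the liver median of 16.7 kb, and in MEFs only Pax3, at 0.0820 kb, lies below the median of 0.333 kb.

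The nearest liver summit stood 25.1 kb from a start at Mymk, 41.8 kb at Pax7, 52.2 kb at Myog and 53.6 kb at Pax3. It was farther at the other 4 genes, 112 kb at Myf5, 120 kb at Myf6, 190 kb at Myod1 and 569 kb at Mef2c. In MEFs the order differed, from 0.0820 kb at Pax3 and 1.34 kb at Mef2c through 7.12 kb at Mymk, 11.7 kb at Pax7 and 16.9 kb at Myod1 to 39.6 kb at Myf6 and 43.2 kb at both Myf5 and Myog. In Hep3B cells MYMK stood apart at 4.64 kb, below the median of 5.88 kb, MYOG followed at 59.7 kb, and the other 6 lay between 220 kb (MYF5) and 461 kb (MEF2C). Mef2c was thus the gene farthest from a summit in both the liver and the Hep3B list, and the second nearest in MEFs.

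Just beyond the 50 kb limit, 7 summits lay within 60 kb. A liver peak stood 52.2 kb from Myog (percentile 19.6) and a MEF peak 52.2 kb on its other side (percentile 75.1). Next to Mymk, peaks of liver (51.7 kb, percentile 2.10) and MEFs (51.9 kb, percentile 90.8) were nearest to Cacfd1, as was a Hep3B peak 54.7 kb from human MYMK (percentile 98.1). The others were a MEF peak 57.9 kb from Mef2c (percentile 13.3) and a Hep3B peak 56.8 kb from MYOG (percentile 18.8).

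Liver and MEFs shared no peak at these genes. None of the 29 MEF peaks overlapped a liver peak, where 21.4% of all MEF peaks did, and none of the 5 liver peaks overlapped a MEF peak, where 18.9% of all liver peaks did. The MEF peaks of Myod1, Myf5, Myf6, Myog and Mef2c stood at genes without a liver peak, so their lack of overlap repeats the counts above. The 21.4% includes promoter peaks, while 6 of the 29 summits lay within 1 kb of any start. No share over peaks away from starts was computed. The closest approaches were 946 bp between summits downstream of Mymk and 1322 bp upstream of Pax7. Over 15744 gene symbols found in both species, 6.73% had peaks in or near the gene only in the MEF list, and 5 of the 8 genes showed this pattern, Myod1, Myf5, Myf6, Myog and Mef2c. It depends on the limits of the lists and of the window. Peak areas start at 500 in the liver list and at 200 in the MEF list. All MEF peaks of Myod1, Myf5, Myf6 and Mef2c had areas below 500, the largest 476 at Mef2c. Myog had a liver summit 52.2 kb away and a Hep3B summit 56.8 kb away, just beyond the window. Pax3 and Pax7 had peaks in liver and MEFs only, a pattern of 12.3% of symbols, and Mymk was among the 65.8% with peaks in all 3 lists.

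Mymk had the highest mean of best percentiles over the 3 lists, 62.1, from 58.9 in liver, 90.2 in MEFs and 37.1 in Hep3B cells. A gene without a peak in a list counted as 0 there. Pax3, higher than Mymk in liver (77.5) and MEFs (93.4), thus had a mean of 57.0. The gene most like Mymk was its neighbour ADAMTSL2, with a summed difference of 0 because both took their best values from the same peaks. NEU3, a sialidase gene, differed by 2.82 percentile points summed over the 3 lists and TAB1, a kinase adaptor gene, by 3.56.

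Sequence in the 200 bp centred on each summit was next compared with that of all peaks in the same list, with every motif searched on both strands. The PROX1 consensus, with up to 2 mismatches, stood in 1 of the 29 MEF peaks (Mymk, chr2:27032317-27032615) and in none of the 5 liver and 2 Hep3B peaks, against 2.91% of all MEF, 4.19% of all liver and 2.99% of all Hep3B peaks. This string is not the PROX1 motif that the authors mapped, so these shares do not measure how many peaks hold their motif. The E-box CANNTG stood in 23 of 29 MEF peaks, 79.3% against 64.3% of the list. Its form CAGCTG, which myogenic factors favour, stood in 8 of 29, or 27.6% against 14.7%, at Myod1, Myog (both peaks), Pax3, Mef2c and Mymk (3 peaks). In liver CANNTG stood in 1 of 5 peaks against 67.4% and CAGCTG in none against 12.6%. In Hep3B cells CANNTG stood in 1 of 2 against 54.3% and CAGCTG in none against 11.9%. Every CAGCTG is also a CANNTG, so the 2 counts are not independent.

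The CTCF consensus with up to 2 mismatches, added after the sequences were seen, stood in 15 of 29 MEF peaks, 51.7% against 41.2% of the list, and with up to 1 mismatch in 11 of 29, 37.9% against 20.0%. Those 11 included the strongest MEF peaks of Myod1, Myf5 and Myf6, Myog, Pax7, Mef2c and Mymk, while none of the 3 Pax3 peaks held a match. In liver 2 of 5 peaks held it within 2 mismatches against 19.8% and 1 of 5 within 1 mismatch against 4.92%. In Hep3B cells 2 of 2 held it within 2 mismatches against 35.9% and 0 of 2 within 1 mismatch against 12.9%. The shorter core CCACTAG stood in 3 of 29 MEF peaks, 10.3% against 5.46%, and in no liver or Hep3B peak, against 2.21% and 3.36%. The MEF2 consensus stood in 1 MEF peak, in an intron of Mef2c itself, 3.45% against 2.16%, and in no liver or Hep3B peak, against 2.06% and 1.48%. ATCGAT stood in 1 of 5 liver peaks, within Pax7, against 2.05%, and in no MEF or Hep3B peak, against 0.654% and 0.641%. CCAAT stood in 5 of 29 MEF peaks, the Pax3 start among them, against 27.9% of the list, in 1 of 5 liver peaks against 26.5% and in 1 of 2 Hep3B peaks against 29.3%. With 29, 5 and 2 peaks, differences of this size from a list share rest on a few peaks.

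The GC content of the 200 bp windows had a median of 56.0% in the MEF peaks (36.0% to 77.0%) against 52.5% in the list. The highest values, 77.0% at the Kcnc1 start near Myod1 and 76.0% 20.2 kb upstream of Pax3, were both in peaks of low rank. In liver the median was 50.0% against 47.5%. Over 50% of the window was soft-masked repeat in 2 of 29 MEF peaks, 1 at Pax7 and 1 at Mymk, and in none of the 5 liver peaks, against 3.14% and 5.51% of the lists.

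Other genes of muscle development, in 4 lists, differed in how often they carried a promoter peak, meaning a summit within 1 kb of a start. Their shares are set against all protein-coding genes, and their CpG class was not computed. Over all CpG-rich genes the share with a promoter peak was 89.3% in MEFs, 39.9% in liver and 61.8% in Hep3B cells. Among 13 upstream regulators of the lineage, 7 had one in MEFs (53.8%, near the background of 56.5%), 1 in liver (7.69% against 28.3%) and 1 in Hep3B cells (7.69% against 45.2%). Those in MEFs included Met, the receptor that migrating muscle progenitors need (percentile 86.1), and Eya1, a coactivator in the cascade above the myogenic factors (80.1). Met gave the liver peak (percentile 90.3), which stood at the start of a shorter transcript inside the gene and overlapped a coding exon, and MET the Hep3B peak (49.4).

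Of 11 partners and cofactors of the myogenic factors, genes used in many tissues, all 11 had a promoter peak in MEFs against 56.5% of all genes, 8 in liver (72.7% against 28.3%) and 9 in Hep3B cells (81.8% against 45.2%). In MEFs the strongest were at Mef2d (percentile 99.3), Carm1, an arginine methyltransferase (98.0), and Tcf3, which encodes the E proteins E12 and E47 (97.1). In liver they were at Mapk14, the p38α kinase (95.8), Mef2b (64.3) and Tcf3 (26.5), and in Hep3B cells at CARM1 (99.9), MAPK14 (97.4) and MEF2D (94.9). So Mef2d had a promoter peak in all 3 lists, whereas Mef2c of the same family had none.

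Of 17 factors that restrain myogenesis, 15 had a promoter peak in MEFs (88.2% against 56.5% of all genes), 8 in liver (47.1% against 28.3%) and 10 in Hep3B cells (58.8% against 45.2%). The strongest in MEFs were Hdac4, a class IIa deacetylase that binds MEF2 (percentile 99.4), and the Notch effectors Hes1 (98.5) and Hey1 (95.2). In liver they were Zeb1, an E-box repressor (96.3), Id1, which sequesters E proteins (79.9), and Snai2 (74.5). Of the 8 liver genes, 4 (Zeb1, Hes1, Hdac4 and Id3) had their strongest promoter peak at a start of a transcript that codes for no protein. In Hep3B cells HDAC5 (89.7), HDAC4 (89.6) and RBPJ, the DNA-binding factor of Notch signalling (89.6), led the list.

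Of 32 fusion, contractile and junction genes of differentiated muscle, 9 had a promoter peak in MEFs (28.1% against 56.5% of all genes), 3 in liver (9.38% against 28.3%) and, of 31 found in human, 2 in Hep3B cells (6.45% against 45.2%). In MEFs these included Mylpf, a fast myosin light chain (percentile 99.8), Cdh15, the muscle cadherin (92.1), and Myl4 (69.0), and 1 of the 9, Ckm, had its strongest promoter peak at a start of a transcript that codes for no protein. In liver they were Myh4 (64.2), Mylpf (59.1) and Neb, which encodes nebulin (5.65), and in Hep3B cells CDH15 (93.0) and ITGA7, a laminin receptor subunit (10.2), whose summit lay in the UTR of BLOC1S1 at a start of an ITGA7 transcript that codes for no protein. Over all 4 lists the shares, 27.4% in liver, 57.5% in MEFs and 30.6% in Hep3B cells, were near the background in liver and MEFs and lower in Hep3B cells.

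**Figure D5:**
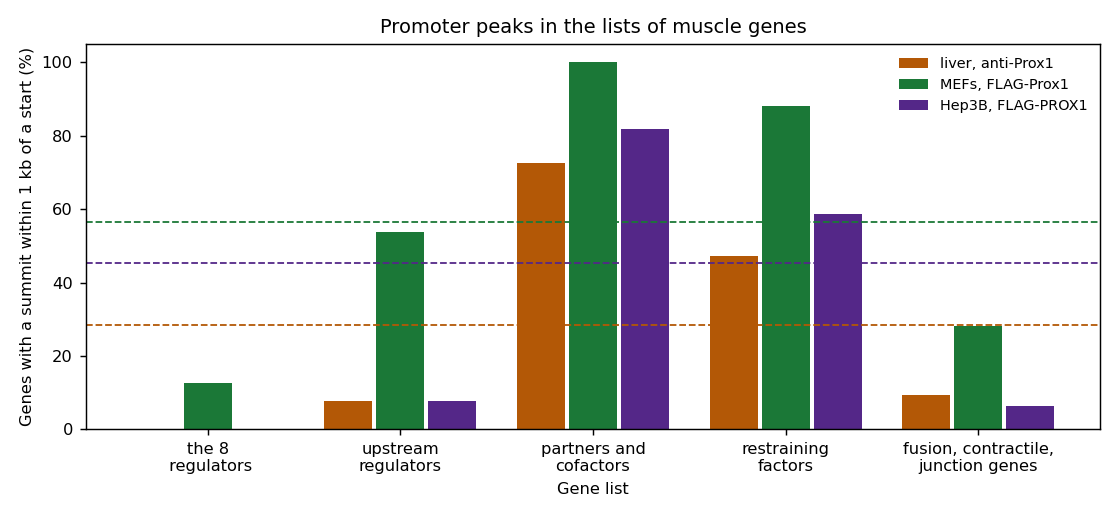
Percent of genes whose start had a summit within 1 kb (vertical axis) for the 8 regulators and the 4 lists of other muscle genes (horizontal axis), as bars for liver (orange), MEFs (green) and Hep3B cells (purple), with dashed lines at the share of all protein-coding genes in the same colours. Partners and cofactors reach 100% in MEFs, while the 8 regulators reach 12.5% in MEFs and 0% in liver and Hep3B cells.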

How the data were processed

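Peak lists from 3 kinds of CUT&RUN sample were used. The authors aligned reads with Bowtie2 2.4.2 to mm10 or hg38 and called peaks over pooled replicates with Genrich 0.6.1, which removed PCR duplicates. How IgG libraries entered the lists is unclear from their methods, and IgG lists were not used here. The deposited values per peak were a score capped at 1000, the area under the significance curve (a score of the caller), the −log10 p and −log10 q of the summit, and a summit offset. None was normalized between lists, and areas start at 500 in liver and 200 elsewhere.

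Summits were assigned to GENCODE M21 or GENCODE 44 genes with Python 3.11.15 and pandas 2.3.3, checked on simulated data, and ranked by −log10 p within a list. A promoter peak lay within 1000 bp of any annotated transcript start. A coding start was any annotated transcript start of a protein-coding gene, also of its transcripts that code for no protein. No test was run, since each list is 1 pooled value per group. Sequences were read from the same builds. The members and gene lists were chosen with earlier results of these data known. Genes named were the members, genes whose start was within 1 kb of an assigned summit, up to 3 genes per list with the strongest promoter peak, and the 3 genes most like Mymk. A gene named by this rule is not reported here. Adora1, Ptprq, Cacfd1, BLOC1S1, Id3 and Ckm were named after their values were seen. The symbol MYLPF had no match in the human annotation.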

Additional observations from a re-analysis of the deposited data

How the results depend on the processing

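Of 121 recomputed values, 91 stayed within 1.5 times the reported one and 30 did not. Some of the 91 could not move. The q-value limits of 0.05 and 0.01 and an area of at least 500 kept all 50159 liver peaks, and equal numbers of top peaks kept all 14369 Hep3B peaks. A count of 0 also stays at 0 under a stricter filter. The window decided many of the 30. At 10 kb, 3 liver peaks remained assigned, 1 Hep3B peak, and in MEFs 9 peaks over 4 genes, of which 8 were nearest to a member. At 100 kb there were 15 liver peaks, and 6 Hep3B peaks over 2 genes. With a promoter of 2 kb, or any base of a peak counted, 2 genes had a MEF promoter peak. It was 0 at a q-value of at most 0.01, with equal numbers of top peaks and at an area of at least 500. Equal numbers of top peaks (14369 per list) left 1 liver peak at 1 gene, nearest to that gene, and 9 MEF peaks, 4 of them nearest to a member. An area of at least 500 left 5 MEF peaks over 4 genes, 3 nearest to a member, and 0 Hep3B peaks at 0 genes. Counting only peaks whose nearest coding start was the gene's own, chosen after seeing the data, gave 5 genes in MEFs and 0 in Hep3B cells. The PROX1 consensus count in MEFs was 0 with 1 mismatch, 5 with 3 mismatches, 5 over whole peaks, and 0 with equal top peaks or the area limit. Overlap of liver and MEF peaks stayed at 0 under all 7 alternatives, but only widening the peaks by 200 bp could have raised it. The others were stricter, or asked for summits within 100 bp where the closest were 946 bp apart. No paired analysis was possible because each list pools the replicates of its group, and for the same reason no replicate could be left out.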
